A study of Mus musculus with 5 samples.

Results

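This account covers transcription factor genes of the basic helix-loop-helix (bHLH), basic leucine zipper (bZIP) and nuclear receptor classes, together with the Egr, Stat, Irf, NF-kappaB, E2F, Ets, Mef2, nuclear factor I, NFAT, TCF/LEF and Smad families. Members were chosen by name alone: a probe entered when the single gene symbol in its annotation began with one of these family names. The 163 probes found in this way stand for 119 genes of the 8944 with a named probe, and 118 had a value on every array. Of the 119 genes, 20 were bHLH, 20 bZIP and 22 nuclear receptor genes, 38 belonged to the other families, and 19 carried a matching symbol without being a factor of them. Bhlhb9 is counted as bHLH by its symbol alone. The rule set 9 further genes aside (Esrrb, Rorb, Rxrg, Neurod1, Neurod6, Bhlhe40, Id2, Nr2f1 and Nr1d2). Of those 9, 7 passed the 2-fold test described below, so the counts for the members leave out several large ratios of the same families. By log2 ratio, Esrrb (3.31), Neurod1 (2.78), Nr1d2 (2.00) and Rorb (1.72) were higher in retina. Id2 (-2.86), Nr2f1 (-2.71) and Neurod6 (-2.69) were lower.

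RNA of adult retina from C57/B6 mice was compared with RNA of cortex from Swiss-Webster mice on postnatal day 1. Aliquots of 1 pool per tissue were hybridised together on 5 Agilent arrays, retina with the red dye Cy5 and cortex with the green dye Cy3 each time. Tissue, age, strain and dye therefore differ together and cannot be told apart, and how many animals made up a pool is not stated in the labels. The arrays are technical replicates, so every SD and p below measures labelling and hybridisation and not animals. Values are log2 ratios of retina over cortex, as mean ± SD over n = 5 arrays. The log base of 10 in the deposited table and the direction of the ratio are likely rather than stated, and with the direction turned every sign below would turn. The words higher and lower are kept for genes that passed the 2-fold test: limma's treat against a log2 size of 1, with Benjamini-Hochberg adjustment over all 8798 genes and a threshold of 0.05. In bulk tissue, fewer cells of a type and less RNA per cell cannot be told apart.

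The tissues were checked against defining markers. All 3 measured photoreceptor markers were higher in retina, with a median of 3.28, and 7 of 10 measured markers of newborn cortical neurons were lower, with a median of -2.33. Over all genes, 2.8% were higher and 3.83% lower. Of the 10 cortical markers, 2 are members (Neurod2 and Nfib), and neither of these passed. Of 18 listed photoreceptor markers, 15 were not measured, rhodopsin among them. Exact 0 values, read as missing, numbered from 174 to 406 on arrays 1, 2, 3 and 5 and 1068 on array 4.

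Transcription factors of these classes bind short DNA motifs as dimers or monomers and set which genes a cell transcribes. The bHLH factors pair through their helices on the E-box. Proneural members promote neuronal fate, Hes and Hey members repress it downstream of Notch, and Id proteins, which lack the basic region, pair with bHLH factors into dimers that cannot bind DNA. The bZIP factors pair through a leucine zipper and serve stress, cyclic AMP and immediate early responses. Nuclear receptors bind hormones, retinoids or lipids, or act without a known ligand, and several need the retinoid X receptor as partner. In retina and cortex alike, members of all 3 classes direct progenitor division, cell fate and later responses to activity.

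Most members did not pass the 2-fold test between adult retina and newborn cortex, but a larger share passed than among all genes. Of the 118 measured members, 6 were higher in retina, 6 were lower and 106 did not pass. The share that passed was 10.2%, where 6.63% of all 8798 genes passed. In the higher direction the share was 5.08% against 2.8% of all genes, and in the lower direction 5.08% against 3.83%. All 12 members that passed had the same sign on all 5 arrays, which passing this test nearly ensures. The same sign on all 5 arrays was found for 74.6% of the measured members and 73.5% of all genes. The median log2 ratio over the members was 0.02, and over all genes it was -0.0048. The median size without sign was 0.39 over the members and 0.26 over all genes. A mean within 0.5 log2 of 0 was found for 68 members, or 57.6%, and for 72.0% of all genes. Set against a ratio of exactly 0, limma called 90 members, or 76.3%, close to the background of 73.7% of all genes. The spread between arrays was also alike, with a median SD of 0.082 for the members and 0.085 for all genes.

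**Figure D1:**
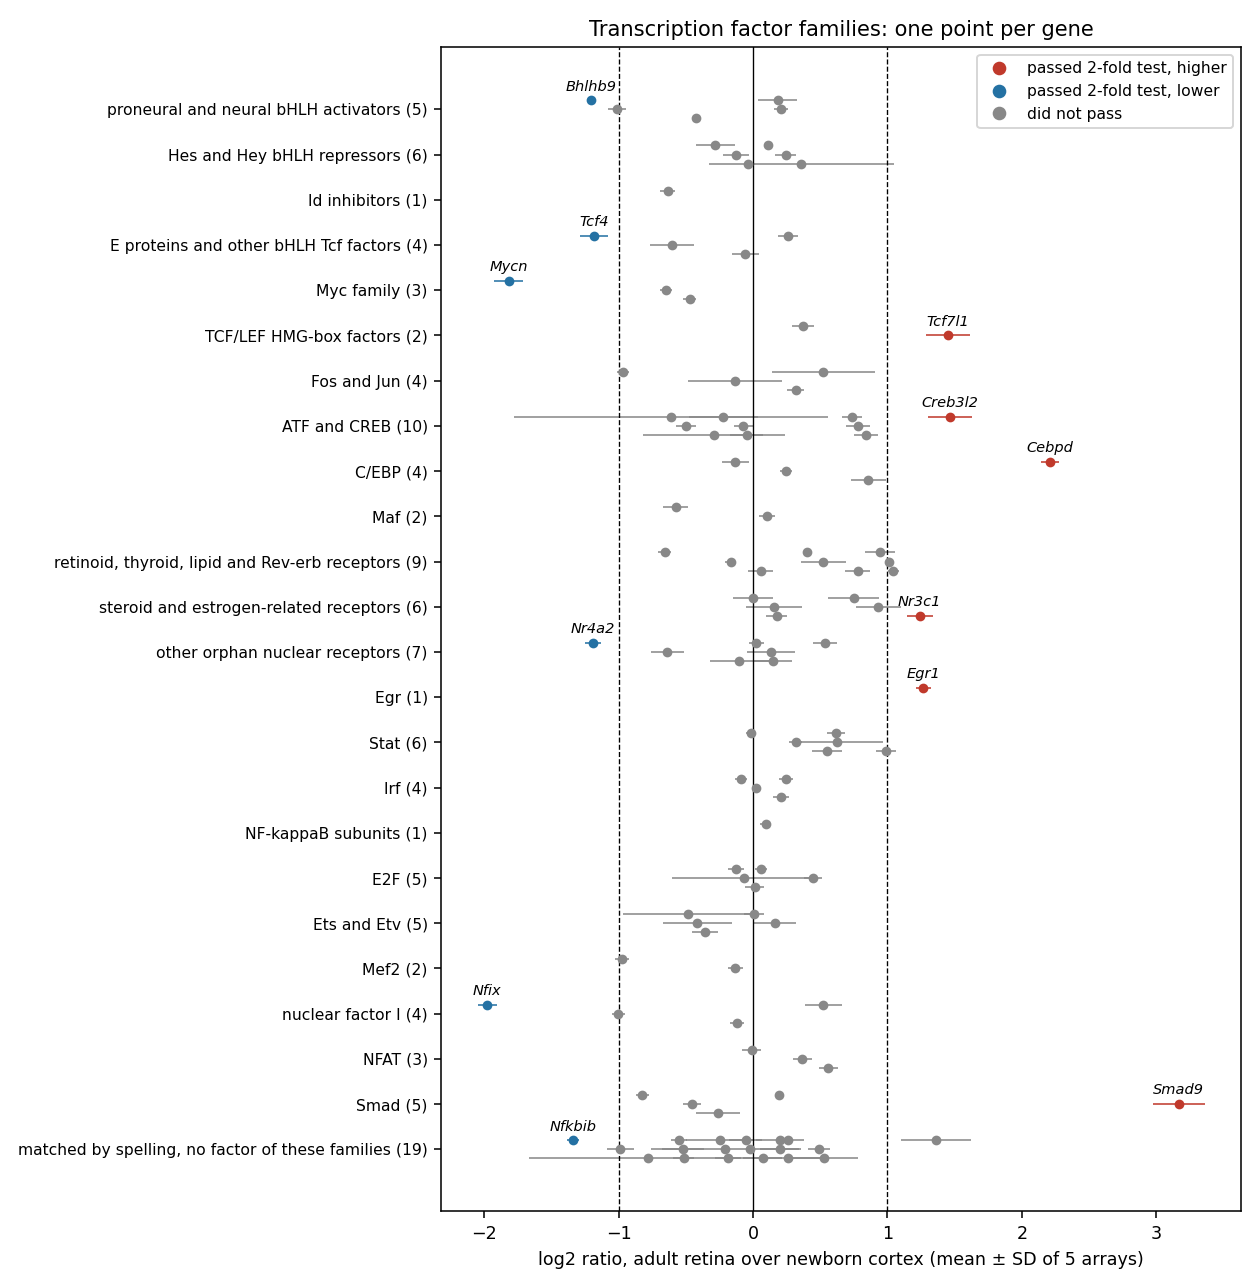
Log2 ratio of retina over cortex (horizontal axis) for each of the 118 measured members, in rows by family with the number of genes in brackets. Points are means over 5 arrays, bars the SD, dashed lines the 2-fold limits, and the 6 red and 6 blue named points passed the 2-fold test, from Nfix at -1.98 to Smad9 at 3.17.

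The largest ratio of any member was that of Smad9, a Smad protein that receptors for bone morphogenetic proteins phosphorylate. Its log2 ratio read 3.25, 3.33, 3.22, 3.20 and 2.83 on arrays 1 to 5, a mean of 3.17 ± 0.19 or 8.98-fold higher in retina (adjusted p = 2.73e-06, limma 2-fold test). Array 5 lay below the other 4 arrays, and even there the ratio was far above the limit of 1. No other Smad passed. Smad1, which serves the same receptors, stood on the other side of 0 at -0.82 ± 0.05, as did Smad5 at -0.45 ± 0.07. The shared partner Smad4 was at -0.26 ± 0.16, and Smad3, of the TGF-beta and activin branch, at 0.20 ± 0.01.

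Next came Cebpd, a bZIP factor known for its rapid rise in inflammation and acute stress. Its log2 ratios on arrays 1 to 5 were 2.30, 2.24, 2.12, 2.21 and 2.19, with a mean of 2.21 ± 0.07 or 4.63-fold higher in retina (limma adjusted p = 9.18e-07). The 5 arrays lay within 0.2 log2 of each other.

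The lowest member was Nfix, a nuclear factor I protein with roles in neural stem cells and neuronal differentiation. Its log2 ratios were -2.06, -1.94, -2.04, -1.89 and -1.94 on arrays 1 to 5, a mean of -1.98 ± 0.07 or 3.93-fold lower in retina (limma adjusted p = 2.78e-06). Mycn, which drives division of neural progenitors, followed at -1.93, -1.76, -1.82, -1.90 and -1.66, a mean of -1.82 ± 0.11 or 3.52-fold lower (limma adjusted p = 2.78e-05). Neither gene came near the limit of -1 on any array. Both rest on a single probe, as do 10 of the 12 members that passed, so no second probe checks them.

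**Figure D2:**
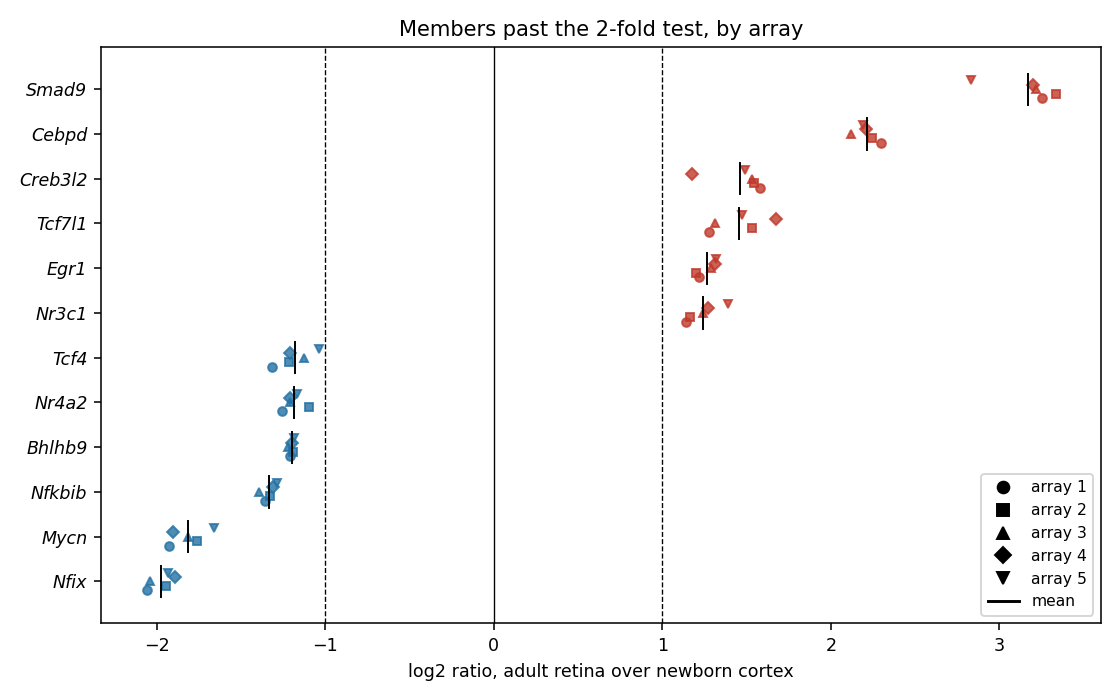
Log2 ratio of retina over cortex (horizontal axis) of the 12 members that passed the 2-fold test, with 1 symbol per array and a black bar at the mean. The 6 red genes lie above 1 and the 6 blue genes below -1 on every array, with Tcf4 on array 5 closest to the limit at -1.04.

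Of these 12 genes, 3 of the higher and 5 of the lower had a RefSeq window of the 250 bases before a start. Only the first listed start of each gene was read. For 2 of them, 1 in each direction, this window overlaps no annotated gene. These 2 windows show what stands directly before the start (GRCm38.p6, strand of the gene, read 5′ to 3′). That of Mycn lies at chr12:12941837-12942086 on the minus strand and that of Tcf7l1 at chr6:72789046-72789295 on the minus strand. Capitals mark matches on either strand to any of 6 motifs. The bHLH factors bind the E-box CANNTG, and the photoreceptor factors Otx2 and Crx bind TAATCC. The CREB factors bind TGACGTCA, and nuclear receptors bind elements built on AGGTCA. For the E2F proteins the motif searched was TTTNNCGC, and for the AP-1 dimers TGANTCA. N stands for any base, so both also match sequences that these factors may not bind.
Mycn: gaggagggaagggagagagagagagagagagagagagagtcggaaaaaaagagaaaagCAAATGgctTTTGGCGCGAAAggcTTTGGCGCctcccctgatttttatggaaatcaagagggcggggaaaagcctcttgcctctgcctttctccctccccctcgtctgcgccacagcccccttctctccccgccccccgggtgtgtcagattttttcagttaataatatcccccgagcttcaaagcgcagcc
Tcf7l1: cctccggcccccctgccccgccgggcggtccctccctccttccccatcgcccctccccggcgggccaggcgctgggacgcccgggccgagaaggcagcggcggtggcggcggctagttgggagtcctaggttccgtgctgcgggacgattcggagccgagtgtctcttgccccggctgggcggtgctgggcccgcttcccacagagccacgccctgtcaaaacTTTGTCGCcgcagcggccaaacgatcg
The Mycn window held 3 matches to the E2F motif, of which 2 overlap on opposite strands, and 1 E-box. The Tcf7l1 window held 1 match to the E2F motif and none to the other 5. Among all passing members with a window, 1 of 3 higher (Tcf7l1) and 1 of 5 lower (Mycn) held a match to this E2F motif. The Tcf7l1 match was TTTGTCGC. Over the first listed start of each of 27025 RefSeq genes, 4.39% of windows of this length held the E2F motif, 66.0% an E-box, 6.38% TAATCC, 1.62% TGACGTCA, 6.87% TGANTCA and 13.8% AGGTCA. Of the 94 measured members with a listed window, 8 held the E2F motif, 51 an E-box, 3 TAATCC, 3 TGACGTCA, 4 TGANTCA and 7 AGGTCA. These are matches of letters and no measured binding.

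Among the bHLH members, 3 of 19 measured were lower in retina and none was higher, where 3.83% and 2.8% of all genes were. Their median was -0.28. Besides Mycn the 3 were Tcf4 and Bhlhb9, the last counted as bHLH by its symbol alone. Of the bHLH genes set aside, Neurod1 was higher, Neurod6 and Id2 were lower and Bhlhe40 did not pass. Bhlhb9, a bHLH gene by symbol, was the most even of all members that passed, at -1.21, -1.19, -1.22, -1.20 and -1.19 on arrays 1 to 5, a mean of -1.20 ± 0.01 or 2.30-fold lower (limma adjusted p = 0.000804). Tcf4 encodes an E protein, the widely expressed partner of tissue-specific bHLH factors. Its log2 ratios were -1.32, -1.22, -1.13, -1.21 and -1.04, a mean of -1.18 ± 0.10 or 2.27-fold lower (limma adjusted p = 0.041). This call was the weakest of the 12: without array 1, 2, 3 or 4 in turn Tcf4 stood between -1.19 and -1.15 and did not pass. It also did not pass without both arrays 1 and 4 (-1.13) or with the arrays scaled to the same spread (-1.19). The call was also lost with only the probe nearest to 0, at -0.40. The other E proteins did not pass either, with Tcf3 at -0.60 ± 0.16 and Tcf12 at 0.26 ± 0.08.

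All 3 Myc genes had ratios below 0 on every array. Mycl read -0.61, -0.68, -0.58, -0.68 and -0.68 (mean -0.65 ± 0.05) and Myc read -0.43, -0.50, -0.41, -0.53 and -0.49 (mean -0.47 ± 0.05). Neither passed the 2-fold test. Of 19 measured cell cycle markers, 2 (Mcm6 and Rrm2) were lower in retina, where 3.83% of all genes were, and 17 did not pass. Mcm2 stood at 0.83 ± 0.11. The list median was -0.34, with a mean over the list from -0.52 to -0.48 on the 5 arrays. The part of dividing cells in the Mycn ratio was not tested. The E2F proteins control genes of DNA replication, E2f3 as an activator and E2f4, E2f5, E2f7 and E2f8 mainly as repressors. None of the 5 genes passed the limma 2-fold test, adjusted or not, and their median was 0.01, with E2f4 at 0.45 ± 0.07 and E2f7 at -0.13 ± 0.06.

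In the group of 5 proneural and neural bHLH genes, only Bhlhb9 was lower, and it was placed there by its symbol alone. The other 4 did not pass. Olig1, a factor of oligodendrocyte precursors, read -0.91, -1.07, -0.97, -1.07 and -1.04, a mean of -1.01 ± 0.07 or 2.02-fold, which lies at the 2-fold limit and did not pass (limma adjusted p = 1). Only 2 oligodendrocyte markers were measured, Mog at -0.0054 and Mal at 0.57, and neither passed. Their part in the Olig1 ratio was not tested. Neurod2, a factor of cortical projection neurons, was at -0.42 ± 0.01 with all arrays between -0.44 and -0.41. The proneural genes Neurog1 (0.21 ± 0.05) and Ascl2 (0.18 ± 0.14) lay near 0.

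The Notch effectors showed no strong difference. None of 6 Hes and Hey genes passed the limma 2-fold test, adjusted or not, and their median was 0.04. Hes1 stood at 0.24 ± 0.08 and Hes5 at 0.11 ± 0.03, both above 0 on every array, while Hey1 was at -0.034 ± 0.02. Heyl was at -0.28 ± 0.14. Of the Id inhibitors, Id3 was at -0.64 ± 0.05, below 0 on every array and short of the limit. Id1 had no value on array 4 and was not tested, and on arrays 1, 2, 3 and 5 it read 1.66, 0.50, 1.53 and 0.04, too far apart to place.

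Of 20 bZIP genes, 2 were higher in retina, Cebpd and Creb3l2, and none was lower, where 2.8% and 3.83% of all genes were. Creb3l2 is a factor held in the membrane of the endoplasmic reticulum and released by cleavage under stress. It read 1.58, 1.54, 1.53, 1.17 and 1.49, a mean of 1.46 ± 0.16 or 2.76-fold higher (limma adjusted p = 0.00298), with array 4 below the rest. The related C/EBP gene Cebpb stood at 0.86 ± 0.13, above 0 on every array, and did not pass, while Cebpa (-0.13 ± 0.10) and Cebpg (0.25 ± 0.05) lay near 0. The stress factors Atf3 (0.84 ± 0.09) and Atf4 (0.78 ± 0.09) were above 0 on every array and did not pass. Atf2 went the other way, at -0.50 ± 0.07.

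The AP-1 genes fell short of the limit. Fosl2 read between -1.00 and -0.89 on the 5 arrays, a mean of -0.96 ± 0.04. Jun stood at 0.32 ± 0.06, with no array below 0.25. Fos, the best known immediate early gene, averaged 0.52 ± 0.39, but its 2 probes disagreed and are given below. The zinc finger gene Egr1, likewise switched on within minutes of a stimulus, was higher in retina. It read 1.22, 1.20, 1.29, 1.31 and 1.32, a mean of 1.27 ± 0.06 or 2.41-fold (limma adjusted p = 0.000884), and all arrays lay within 0.12 log2.

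Nuclear receptor members leaned above 0, with 17 of 22 means positive, where 4349 of all 8798 genes had a mean above 0. Their median was 0.17. By the 2-fold test 1 was higher and 1 lower, where 2.8% and 3.83% of all genes were. Among the receptors set aside, Esrrb, Rorb and Nr1d2 were higher, Nr2f1 was lower and Rxrg did not pass. Nr3c1, the glucocorticoid receptor, read 1.14, 1.16, 1.24, 1.27 and 1.39, a mean of 1.24 ± 0.10 or 2.36-fold higher in retina (limma adjusted p = 0.00925). It has 2 probes, at 1.40 ± 0.15 and 1.08 ± 0.09, and with the lower one alone the gene did not pass. Without arrays 1 and 4 it stood at 1.26 and did not pass either. Its relative Nr3c2, the mineralocorticoid receptor, was at 0.16 ± 0.21, with arrays on both sides of 0.

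Nr4a2 (Nurr1), an orphan receptor found in deep cortical neurons, was lower in retina. It read -1.26, -1.10, -1.21, -1.21 and -1.17, a mean of -1.19 ± 0.06 or 2.28-fold (limma adjusted p = 0.00629). The call was lost when the arrays were scaled to the same spread (-1.20) and without arrays 1 and 4 (-1.16). Nr2f2 (COUP-TFII) stood at -0.64 ± 0.12, below 0 on every array. The progenitor receptor Nr2e1 (Tlx) was at -0.10 ± 0.22, with arrays from -0.47 to 0.12.

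Member receptors of the retinoid, thyroid hormone and lipid group did not pass in any of 9 cases, adjusted or not by limma. Rorb, Rxrg and Nr1d2, set aside by the rule, are not among these 9. The means of 3 genes came within 0.06 log2 of the limit. Rxra, the common partner of these receptors, read 1.04, 1.09, 1.01, 1.08 and 1.01, a mean of 1.05 ± 0.04. Ppara, a regulator of fatty acid oxidation, read 0.98, 1.05, 1.03, 1.01 and 1.00, a mean of 1.01 ± 0.03. Rora stood at 0.95 ± 0.11. Their relatives spread widely: Ppard was at 0.78 ± 0.09, Pparg at 0.52 ± 0.17, Rara at 0.40 ± 0.03, Rxrb at 0.058 ± 0.09 and Rarb at -0.17 ± 0.04. The thyroid hormone receptor gene Thra was at -0.66 ± 0.05. All 6 steroid and estrogen-related receptors had means above 0, from Esr2 at 0.0025 ± 0.15 to Nr3c1, with Esrrg at 0.93 ± 0.17 and Esrra at 0.75 ± 0.19.

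In the remaining factor families, 3 of 38 genes were higher (Smad9, Tcf7l1 and Egr1) and 1 was lower (Nfix). Of all genes, 2.8% were higher and 3.83% lower. Tcf7l1, an HMG-box factor that represses Wnt targets in the absence of beta-catenin, read 1.28, 1.53, 1.31, 1.67 and 1.47, a mean of 1.45 ± 0.16 or 2.74-fold higher (limma adjusted p = 0.00328). Its relative Tcf7l2 was at 0.37 ± 0.08. The nuclear factor I genes differed among themselves: Nfix was lower, Nfib averaged -1.00 ± 0.05 and did not pass, Nfia was at -0.12 ± 0.05 and Nfic at 0.52 ± 0.14. None of 6 Stat genes passed the limma 2-fold test, adjusted or not, and 5 of the 6 means were above 0. Stat5b came closest, at 1.01, 0.92, 0.90, 1.05 and 1.06, a mean of 0.99 ± 0.07, followed by Stat6 (0.63 ± 0.34) and Stat5a (0.62 ± 0.07). The 4 Irf genes of interferon responses lay between -0.09 (Irf8) and 0.24 (Irf3). Of 7 measured markers of microglia and blood leukocytes, 1 was higher in retina, Laptm5 at 1.49 ± 0.05, and the list median was -0.04, with a mean over the list from 0.03 to 0.12 on the 5 arrays. Their part in the Irf and Stat ratios was not tested. Ets and Etv genes (median -0.36 over 5), Mef2a (-0.13 ± 0.06) and the NFAT genes (median 0.37 over 3) did not pass.

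Among the 19 genes that match by symbol without being factors of these families, 1 was lower. None was higher. Of all genes, 3.83% were lower and 2.8% higher. Several of them encode proteins that act on the factors, and Junos is an antisense RNA gene. Nfkbib, an inhibitor that holds NF-kappaB in the cytoplasm, read -1.36, -1.33, -1.40, -1.31 and -1.29, a mean of -1.34 ± 0.04 or 2.53-fold lower in retina (limma adjusted p = 0.000158). The sister inhibitor Nfkbia was at 0.49 ± 0.08, above 0 on every array, and Nfkbie at 0.073 ± 0.15. Ppargc1b, a coactivator of nuclear receptors in mitochondrial metabolism, read 1.30, 0.98, 1.31, 1.64 and 1.57, a mean of 1.36 ± 0.26, and did not pass (limma adjusted p = 0.071). Its low value lay on array 2, and without that array it stood at 1.46 and passed. The ubiquitin ligase gene Mycbp2 averaged -0.99 ± 0.10.

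Probes of the same gene often disagreed, and this decided several calls. Of the measured members, 34 had several probes with a value on every array. Their probe means lay a median of 0.48 log2 apart, more than 1 log2 apart in 11 genes, and on opposite sides of 0 in 8. In several of these 8 a probe lay close to 0, as in Ets1 (-0.02 and 0.03) and Nr6a1 (-0.03 and 1.11). The same figures over all genes with several probes are not given here, so this spread is not shown to be particular to the members. When each of the 160 probes was tested on its own, 25 passed the 2-fold test, 12 higher and 13 lower, or 15.6% against 6.77% of all 11500 named probes. They came from 22 genes, all 12 described above and 10 others, in which other probes of the gene lay nearer to 0 and the gene mean did not pass. This test was chosen after the data were seen.

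The 10 other genes included 4 nuclear receptors with 1 probe past the test on the higher side. For Rxra, 1 probe read 1.84, 1.92, 1.79, 1.86 and 1.83 on arrays 1 to 5 and the other 0.23, 0.26, 0.23, 0.29 and 0.19. For Ppara, 1 probe read 1.71, 1.81, 1.82, 1.68 and 1.79 and the other 0.24, 0.29, 0.23, 0.34 and 0.21. Within each probe the arrays were close together, while the 2 probes of a gene lay 1.61 (Rxra) and 1.501 (Ppara) log2 apart and their arrays did not overlap. The same held for Rora (1.51 ± 0.11 and 0.38 ± 0.14) and Esrrg (1.48 ± 0.22 and 0.39 ± 0.13). On the lower side, 1 of 3 Thra probes passed at -1.19 ± 0.06, with the others at -0.76 ± 0.08 and -0.02 ± 0.07.

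Opposite signs were widest in Nfib, a nuclear factor I gene of cortical development. One probe read -2.41, -2.28, -2.22, -2.36 and -2.31, and the other 0.42, 0.32, 0.34, 0.26 and 0.24, so their mean of -1.00 describes neither. Mef2c, an activity-dependent factor of cortical neurons, had 2 probes that passed on the lower side (-2.09 ± 0.16 and -1.65 ± 0.18) and 2 near 0 (-0.21 ± 0.11 and 0.05 ± 0.07). One Fos probe was steady at 1.48, 1.72, 1.44, 1.54 and 1.63 and passed on the higher side. The other read 0.26, -1.76, 0.19, -1.00 and -0.25, a mean of -0.51 ± 0.86, too far apart to give a direction. For Atf6, a stress factor of the endoplasmic reticulum, the probes stood at 1.39 ± 0.12, which passed, and 0.09 ± 0.05. Of 3 Mycbp2 probes with a value on every array, 2 passed, both at -1.24, and the third was at -0.48. Of 3 Tcf4 probes, 2 passed (-1.64 ± 0.11 and -1.50 ± 0.23) and the third stood at -0.40 ± 0.04. The probe sequences and the transcripts they target were not used here.

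**Figure D3:**
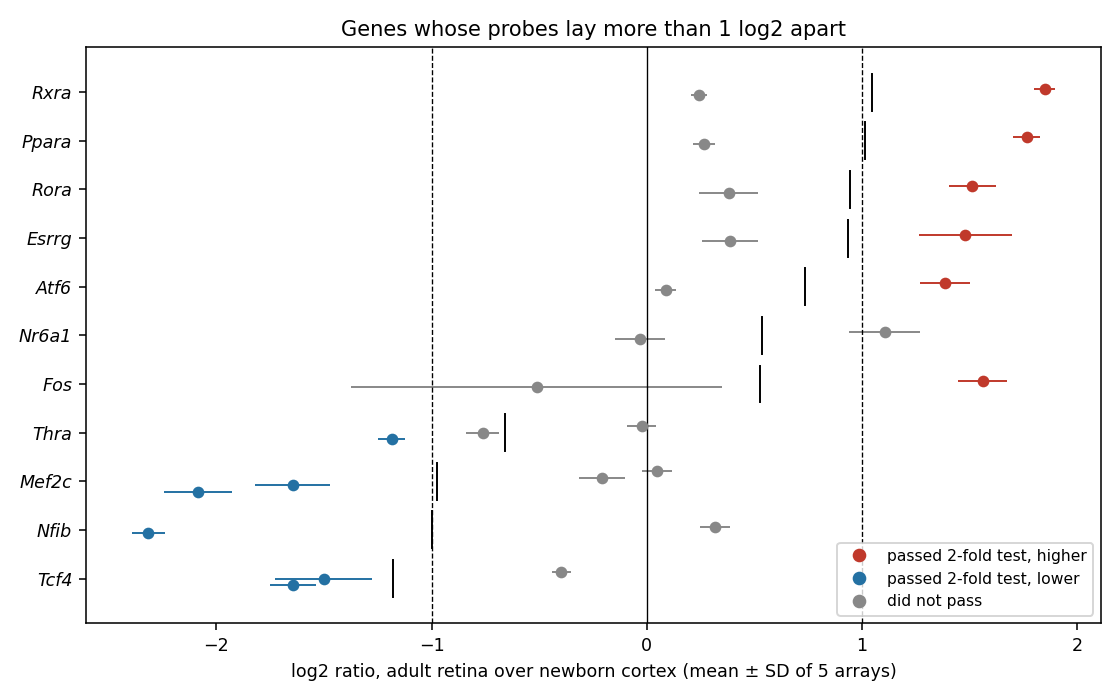
Log2 ratio of retina over cortex (horizontal axis) of every probe of the 11 genes whose probe means lay more than 1 log2 apart, as mean and SD over 5 arrays, with a black bar at the gene mean. Coloured probes passed the 2-fold test on their own, and Nfib spans the widest range, from -2.32 to 0.32.

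Genes that act with these factors were described from 11 lists, each chosen by function. Over all genes, 2.8% were higher and 3.83% lower. The 12 nuclear receptor coregulators, which include the member Crebbp, had a median of -0.16. None was lower, and 1 was higher in retina, the acetyltransferase gene Kat2b at 1.55 ± 0.19. Its probes lay far apart, and with the nearer probe alone Kat2b stood at 0.30 and did not pass. Without arrays 1 and 4 it also did not pass, at 1.496. Of 4 retinoid handling genes, 1 was higher, the retinaldehyde dehydrogenase gene Aldh1a1 at 2.11 ± 0.11, and Aldh1a3 was at -0.12 ± 0.09. None of 18 genes upstream of Hes and Hey passed the limma 2-fold test, adjusted or not. Those farthest from 0 were the Notch ligand gene Jag1 (0.98 ± 0.05) and the corepressor gene Tle1 (-0.86 ± 0.10).

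None of 19 genes of Smad signalling other than the Smads passed the limma 2-fold test, with 1 at an unadjusted p under 0.05. Their median was 0.01, and the ligand gene Tgfb2 (1.21 ± 0.21) and the receptor gene Acvr1 (-1.16 ± 0.69) were farthest from 0. In JAK and Stat signalling none of 13 genes passed by limma, 1 having an unadjusted p under 0.05, with a median of 0.36, Osmr at 1.12 ± 0.22 and Lifr at 1.08 ± 0.04. The 10 NF-kappaB signalling genes include 4 members. Of the 10, 1 was lower, the member Nfkbib described above, where 3.83% of all genes were. Another 1 was higher, where 2.8% of all genes were, the inhibitory ubiquitin-editing enzyme gene Tnfaip3 at 1.52 ± 0.18. Among 13 E2F partners the cyclin gene Ccnd2 was lower at -1.26 ± 0.04, and the kinase inhibitor gene Cdkn1a (-1.03 ± 0.10) did not pass. The probes of Ccnd2 also disagreed, and the nearer one alone stood at -0.0065. Of 4 Myc partners none passed by limma, adjusted or not, and the Myc antagonist gene Mxi1 was at 0.83 ± 0.08 and Mga at 0.38 ± 0.07.

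Genes induced by stimuli or stress were described from separate lists. Over all genes, 2.8% were higher and 3.83% lower. Of 13 immediate early genes other than AP-1 and Egr, 2 were higher, Ier3 at 2.62 ± 0.23 and Ier2 at 1.29 ± 0.09, while the list median was -0.05. Of 11 targets of the CREB and ATF stress factors, 2 were higher, the pseudokinase gene Trib3 at 1.69 ± 0.21 and the mTOR inhibitor gene Ddit4 at 1.44 ± 0.06, with a median of 0.32. In the calcineurin and histone deacetylase inputs to NFAT and Mef2, none of 9 passed by limma, adjusted or not, with Hdac5 at 0.72 ± 0.18 and Ppp3cb at -0.60 ± 0.11. 

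**Figure D4:**
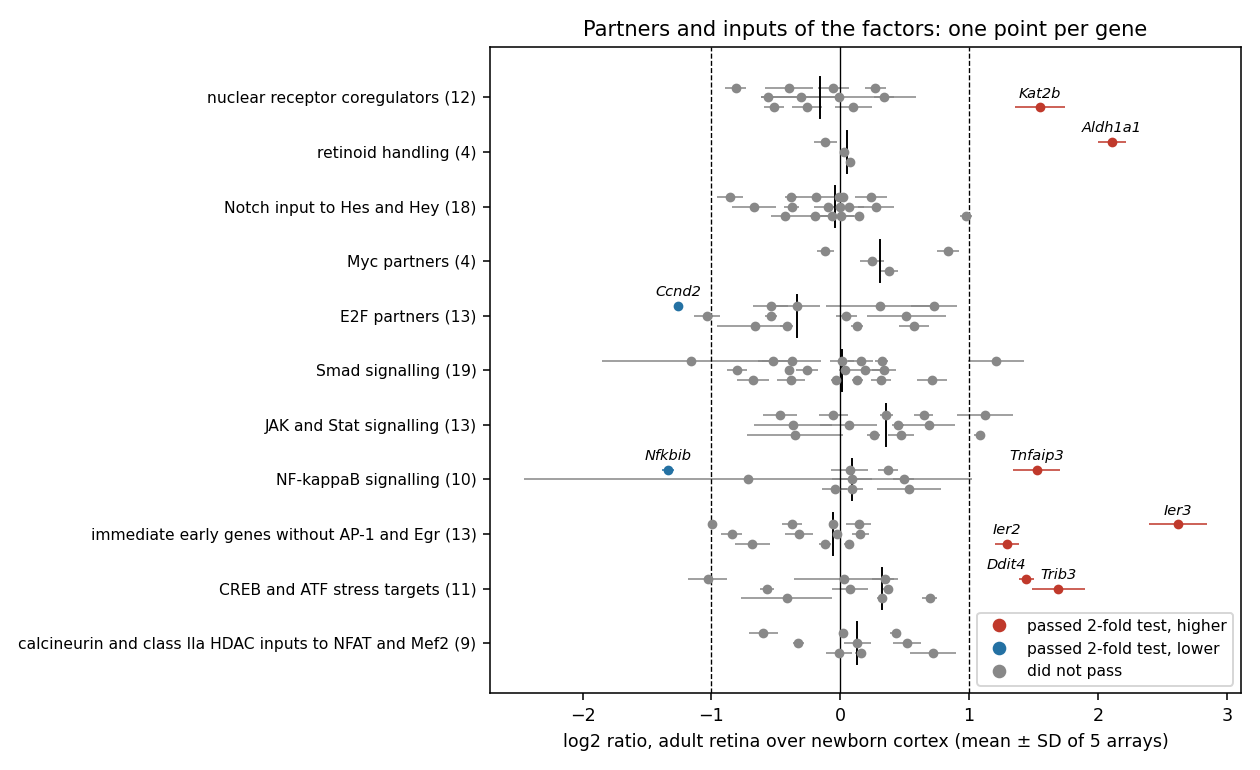
Log2 ratio of retina over cortex (horizontal axis) of genes acting with the factors, in 11 rows by function with the number of genes measured in brackets. Points are means over 5 arrays, bars the SD and black bars the list medians, and the named points passed the 2-fold test, from Nfkbib at -1.34 to Ier3 at 2.62.

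In the lists for other cell types that either piece of tissue could hold, 3 of 9 vessel markers (Flt1, Kdr and Slc2a1) were higher in retina. Yet 5 of the 9 vessel means lay below 0, and the list median was -0.15. Over all genes, 2.8% were higher and 3.83% lower. Lower in retina were 3 of 8 meningeal and fibroblast markers (list median -0.88) and 1 of 2 red cell markers. The pigment epithelium list had 1 measured gene of 10, Ttr, lower at -1.40 ± 0.04, and this gene alone cannot place that tissue. Of 6 glial markers of Müller cells and astrocytes, 2 were higher and 1 lower. Their part in the ratios of Cebpd, Smad9 and the other members was not tested.

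A few members varied too much between arrays to be placed. The SD exceeded 0.5 log2 in 6 of the 118: Creb5, Ror1, Hey2, Nfatc2ip, E2f3 and Creb3. Creb5, a CREB relative, read 1.01, -1.57, 0.23, -1.50 and -1.23 (mean -0.61 ± 1.17). Ror1, a Wnt5a receptor that only shares its name with the nuclear receptors, read 0.01, -1.95, 0.11, -1.38 and -0.71 (mean -0.78 ± 0.89). Hey2 read 1.06, -0.62, 0.97, 0.29 and 0.10. Array 2 gave the lowest value in all 6 of these genes, and none of them passed the 2-fold test.

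**Figure D5:**
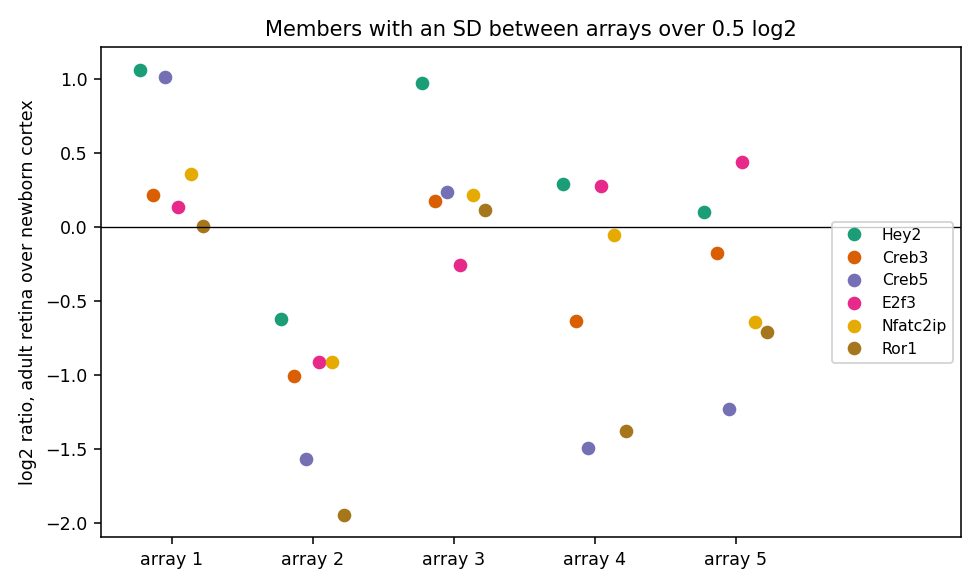
Log2 ratio of retina over cortex (vertical axis) on each array for the 6 members with an SD over 0.5 log2, with 1 colour per gene. Array 2 holds the lowest point of every gene, from -1.95 for Ror1 to -0.62 for Hey2.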

How the data were processed

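The authors deposited 1 value per probe and array, a log10 ratio of the 2 dyes for 21446 probes on 5 arrays. The base was inferred from the values, which end at 2 and -2. The methods of background correction, dye normalization and filtering were not given in the sources used here. Spot signals were not used, so precision rests on the count of arrays. Column medians were 0 on arrays 1 to 4 and -7.32e-05 on array 5, and how the columns were centred is unknown.

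Multiplying by 3.32 turned the values into log2 ratios, and an exact 0 was read as missing. Of the probes, 11813 had 1 gene symbol, 559 several and 9074 none listed. Of the first, 11782 matched a RefSeq gene (GRCm38.p6), and the 9 probes with several symbols that match the families were not used. Each gene was averaged over the probes measured on every array, giving 8798 genes from 11500 probes. These were fitted with limma 3.58.1 (R 4.3.3) by an intercept, with treat (log2 size of 1) and eBayes (against 0), two-sided. The procedure was tested on simulated data. There is 1 group, and no sample was left out.

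Members, lists and tests were chosen with earlier results of these data known. Named genes are the members past the 2-fold test, the 2 farthest from 0 in each family, those nearest to the 2-fold limit and the 2 farthest from 0 in each partner list. Others are examples chosen after their values were seen. Alternatives covered missing values, centring, scaling, the probe rule, prior, array weights, minimum fold, log base and arrays left out.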

Additional observations from a re-analysis of the deposited data

Results flagged for a closer look

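One array stood apart from the other 4 in 5 of the 67 named genes, where the gap to the nearest array was large beside the whole range. Chance gives about 5% of genes checked. Smad9 read 2.83 on array 5 and between 3.20 and 3.33 elsewhere. Creb3l2 read 1.17 on array 4 and between 1.49 and 1.58 elsewhere. Among the partner genes, Kat2b read 1.21 on array 2 and between 1.60 and 1.68 elsewhere. For Hdac5, array 5 stood at 1.03 where the others gave 0.61 to 0.71. For Lifr, array 1 stood at 1.01 where the others gave 1.09 to 1.11. No sign differed between arrays in these 5 genes.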

How the results depend on the processing

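With each array left out in turn, 6 to 7 members were higher and 5 to 6 lower by the 2-fold test, and the members with a ratio other than 0 numbered 83 to 87. With the probe farthest from 0 in place of the mean, 12 were higher and 10 lower. Testing each probe on its own gave 12 and 10 genes, and was chosen after the data were seen. A minimum of 1.5-fold gave 17 higher and 12 lower, and one of 4-fold gave 2 (Smad9 and Cebpd) and 0, with the same counts at an unadjusted p under 0.05 by limma. Reading the deposited values as log2 left 0 higher and 0 lower by limma, also at an unadjusted p under 0.05. Genes whose mean changed sign with the nearest probe were Fos (-0.51), E2f7 (0.27), Mef2c (0.046), Nfib (0.32) and the partner gene Ppp3cb (0.062). Fos also changed sign under the median rule, which takes the lower probe of a gene with 2. None of these 5 passed the 2-fold test as a gene mean. Of 1206 alternative values of the 67 named genes, 1112 kept their sign and side of the threshold, 53 fell below it, 35 rose past it and 6 changed sign. No paired analysis was possible because the arrays form 1 group.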

Other observations

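Array 2 was also the lowest array in most other genes with a wide spread. Of 208 genes in the whole table with an SD over 0.5 log2, array 2 was lowest in 128, or 61.5%, and array 1 or 3 was highest in 95 and 79. Among the members with an SD over 0.2 log2, array 2 was lowest in 13 of 18.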
